A study of Rattus norvegicus with 20 samples.

Results

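The genes described here are 10 neuropeptide precursor genes of the cerebral cortex, *Sst*, *Vip*, *Npy*, *Cck*, *Tac1*, *Penk*, *Pdyn*, *Crh*, *Cort* and *Adcyap1*, chosen by symbol from the 31038 genes of the count matrix. Of these 10, 9 had reads and passed the filter on low counts, and *Npy* was listed at 0 in every rat. The study asked what repeated LSD, a serotonergic psychedelic, leaves behind in gene expression of the medial prefrontal cortex (mPFC) after the drug has been stopped. Male Sprague-Dawley rats, aged 6 to 8 weeks at the start per the labels, received intraperitoneal injections on alternate days for 90 days, of LSD at 0.16 mg/kg in 10 rats and of sterile saline in 10 rats. The labels place the tissue 3 weeks after the last injection, whereas the study's methods give a somewhat longer interval and a somewhat older age, and the entries are the same for both groups. Whole mPFC from 1 hemisphere of each rat gave 1 poly(A)-selected RNA library.

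Neuropeptides are cut from larger precursors inside dense core vesicles and act on G protein-coupled receptors, mostly more slowly and over longer distances than GABA or glutamate. In the cortex many of them mark classes of inhibitory interneuron. Somatostatin cells contact the dendrites of pyramidal neurons, and cells that make vasoactive intestinal peptide (VIP) mainly inhibit other interneurons, somatostatin cells among them. Enkephalin, dynorphin and substance P, from *Penk*, *Pdyn* and *Tac1*, are also made in abundance by the projection neurons of the striatum, which lies beneath the mPFC.

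Several neuropeptide genes are textbook targets of the cyclic AMP pathway, which acts through the cyclic AMP response element TGACGTCA and its shorter core TGACG. RefSeq promoter windows of the GRCr8 build, 250 bases before to 50 bases after the annotated start, were found for 7 of the 10 genes. The full element, read on both strands, was in 1 of these 7 windows, that of *Sst*, and in 1.83% of all 33469 promoter windows of that length. The core, which lies within the full element on both strands, was in the windows of *Sst*, *Vip*, *Tac1* and *Cort* and in 21.2% of all windows. The windows of *Sst*, *Vip* and *Cort* are shown because they hold the core and belong to genes that passed the test below. They are printed from 250 bases before the start to 30 bases after it, with the core in capitals on either strand, at chr11:90461296-90461575 on the plus strand for *Sst*, chr1:44470230-44470509 on the plus strand for *Vip* and chr5:164845095-164845374 on the minus strand for *Cort*.
Sst: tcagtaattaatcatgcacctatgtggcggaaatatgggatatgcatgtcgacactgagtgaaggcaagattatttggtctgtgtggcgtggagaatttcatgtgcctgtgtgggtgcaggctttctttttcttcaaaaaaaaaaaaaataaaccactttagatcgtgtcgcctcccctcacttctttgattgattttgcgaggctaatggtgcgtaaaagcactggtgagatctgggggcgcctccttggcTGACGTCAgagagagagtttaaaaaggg
Vip: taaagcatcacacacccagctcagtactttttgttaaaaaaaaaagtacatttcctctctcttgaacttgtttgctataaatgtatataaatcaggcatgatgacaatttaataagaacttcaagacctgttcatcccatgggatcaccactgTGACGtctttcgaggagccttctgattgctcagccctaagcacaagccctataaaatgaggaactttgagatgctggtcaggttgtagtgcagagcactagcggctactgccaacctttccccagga
Cort: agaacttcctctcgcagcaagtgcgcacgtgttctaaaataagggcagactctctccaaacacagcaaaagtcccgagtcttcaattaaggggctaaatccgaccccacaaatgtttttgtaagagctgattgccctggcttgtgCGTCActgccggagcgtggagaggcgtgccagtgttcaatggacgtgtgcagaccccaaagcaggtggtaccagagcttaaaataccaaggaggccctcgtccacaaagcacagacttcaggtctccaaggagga
In *Sst* the element starts at base 3 after the annotated start, in *Vip* the core starts at position -97, and in *Cort* it starts at position -105 and is read on the opposite strand. Positions count from the annotated GRCr8 start, which was not checked against a measured start of transcription, so the true distance may differ. The fourth window with the core, that of *Tac1*, holds it at position -206. These letter matches are a description of the sequence and no evidence that a factor binds there.

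The libraries held 16346629 to 25552681 reads on genes in the LSD-treated rats and 11098076 to 24201351 in the saline-treated rats, and levels are given as TMM-normalised RPM, reads scaled to a common library size. Defining cortical markers were present, with all 12 listed excitatory neuron markers and 21 of 22 interneuron markers past the filter. Striatal markers were also present, and 4 rats, 1 LSD-treated (LSD 9) and 3 saline-treated (saline 2, 8 and 9), stood apart in them. *Adora2a*, the adenosine receptor of indirect-pathway striatal neurons, was at 28.7 to 44.6 RPM in these 4 rats and 5.34 to 13.7 RPM in the other 16. The 4 rats were picked by this gene. *Six3*, a transcription factor of striatal neurons, was at 1.31 to 2.97 RPM in the 4 and 0 to 0.438 RPM in the other 16. Every comparison was therefore also made without these 4 rats, a choice made after seeing the data.

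Among the 9 neuropeptide genes tested, 2 were higher in the LSD-treated rats (*Vip* and *Adcyap1*), 2 were lower (*Sst* and *Cort*) and 5 did not pass edgeR's quasi-likelihood test at a Benjamini-Hochberg adjusted p of 0.05 over 16605 genes. Of all genes tested, 6.48% were called higher and 8.54% lower. Scaling by total counts in place of TMM moved the split of all genes to 9.06% higher and 5.17% lower. The median log2 fold change of the 9 was -0.24, beside 0.00 over all genes. Without the 4 rats, 2 were higher (*Vip* and *Adcyap1*) and 1 was lower (*Cck*), where 10.2% of all genes were higher and 10.1% lower (20.3% in either direction), and the median of the 9 was -0.08.

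**Figure D1:**
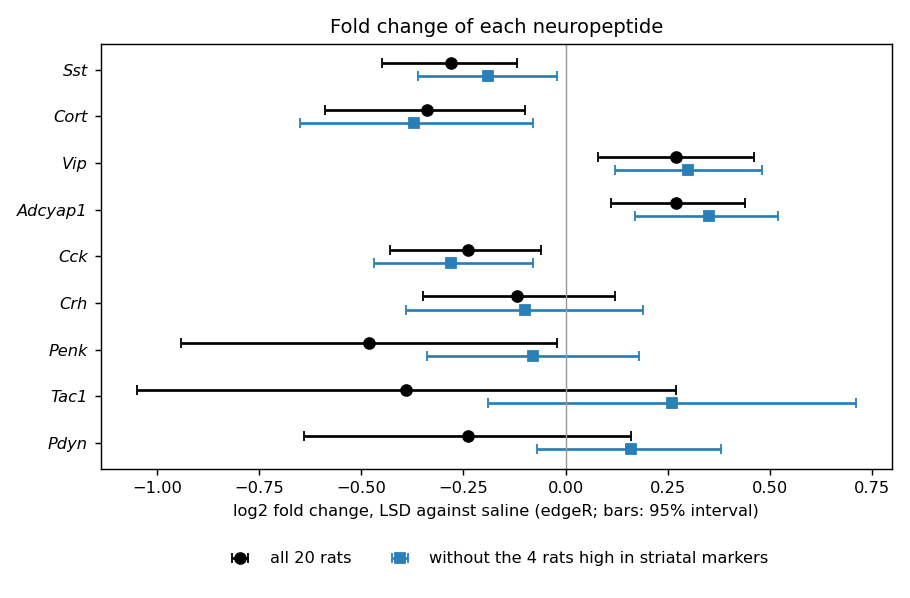
Log2 fold change of each neuropeptide gene, LSD against saline, with 95% confidence intervals from edgeR, for all 20 rats and without the 4 rats high in striatal markers. *Vip* and *Adcyap1* lie above 0 and *Sst*, *Cort* and *Cck* below 0 in both sets, whereas *Tac1* and *Pdyn* move from -0.39 and -0.24 to 0.26 and 0.16.

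*Sst* encodes somatostatin, an inhibitory peptide of the dendrite-targeting interneurons named after it. Its level ran from 105 through a median of 133 to 149 RPM in the LSD-treated rats and from 127 through 163 to 209 RPM in the saline-treated rats. All 10 LSD-treated rats lay below the saline median, and 6 saline-treated rats lay above the highest LSD-treated rat, although the groups overlapped. The means were 133 ± 11.6 and 162 ± 26.2 RPM (SD, n = 10 each), a log2 fold change of -0.28 (SE 0.08, 95% confidence interval -0.45 to -0.12, edgeR adjusted p = 0.0222) on 1576 to 4434 reads per rat. In a bulk sample, fewer cells of a type and less RNA per cell cannot be told apart.

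The call on *Sst* held with each rat left out in turn, with edgeR adjusted p between 0.00846 and 0.0442. It did not hold without the 4 striatal-marker-high rats (-0.19, edgeR adjusted p = 0.0975) or after a correction for gene span (-0.19, edgeR adjusted p = 0.0934). Longer genes had the higher log2 fold changes across all genes in these libraries (rho = 0.359 over 14271 genes, which are not independent), and only 1.08% of them have a shorter span than the 1278 bases of *Sst* on GRCr8.

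*Cort* encodes cortistatin, a peptide close in sequence to somatostatin that also binds somatostatin receptors. It was at 9.27, 10.1 and 13.9 RPM (lowest, median and highest) in the LSD-treated rats and at 8.15, 13.9 and 19.4 RPM in the saline-treated rats. No LSD-treated rat lay above the saline median and 5 saline-treated rats lay above every LSD-treated rat, but the lowest rat of all was saline-treated. The log2 fold change was -0.34 (SE 0.12, 95% confidence interval -0.59 to -0.10), with an edgeR adjusted p of 0.04996 on 162 to 308 reads per rat. This call was at the threshold: it was lost when any of 15 of the 20 rats was left out (LSD 2, 4, 5, 6, 7, 8 or 10, saline 1, 3, 4, 5, 6, 7, 8 or 9; edgeR adjusted p 0.0537 to 0.105), without the 4 striatal-marker-high rats (-0.37, edgeR adjusted p = 0.0628) and after the span correction (-0.26, edgeR adjusted p = 0.139).

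*Vip* moved in the other direction. The level of this transcript, which encodes vasoactive intestinal peptide, was 19.8, 22.9 and 26.4 RPM (lowest, median and highest) in the LSD-treated rats and 13.9, 17.9 and 24.2 RPM in the saline-treated rats. All 10 LSD-treated rats were above the saline median, 6 saline-treated rats were below every LSD-treated rat, and 3 LSD-treated rats were above every saline-treated rat. The log2 fold change was 0.27 (SE 0.092, 95% confidence interval 0.08 to 0.46, edgeR adjusted p = 0.0486), from means of 22.9 ± 2.16 and 18.9 ± 3.61 RPM. The call was lost when any of 14 rats was left out (LSD 2, 3, 4, 5, 7, 8, 9 or 10, saline 1, 3, 4, 5, 7 or 8; edgeR adjusted p 0.0553 to 0.0859). It was kept without the 4 striatal-marker-high rats together (0.30, edgeR adjusted p = 0.0218) and after the span correction (0.33, edgeR adjusted p = 0.028).

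*Adcyap1* encodes PACAP, a peptide of the VIP family that shares receptors with it and is made largely by excitatory neurons. Its level was 16.6, 19.3 and 23.8 RPM in the LSD-treated rats and 13.9, 16 and 19.6 RPM in the saline-treated rats, again as lowest, median and highest. All 10 LSD-treated rats exceeded the saline median and 5 of them exceeded every saline-treated rat. The log2 fold change was 0.27 (SE 0.08, 95% confidence interval 0.11 to 0.44, edgeR adjusted p = 0.0255), and it was 0.35 (edgeR adjusted p = 0.0117) without the 4 rats. It missed the threshold narrowly without LSD 3 or without LSD 8 (edgeR adjusted p 0.0501 and 0.0528).

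**Figure D2:**
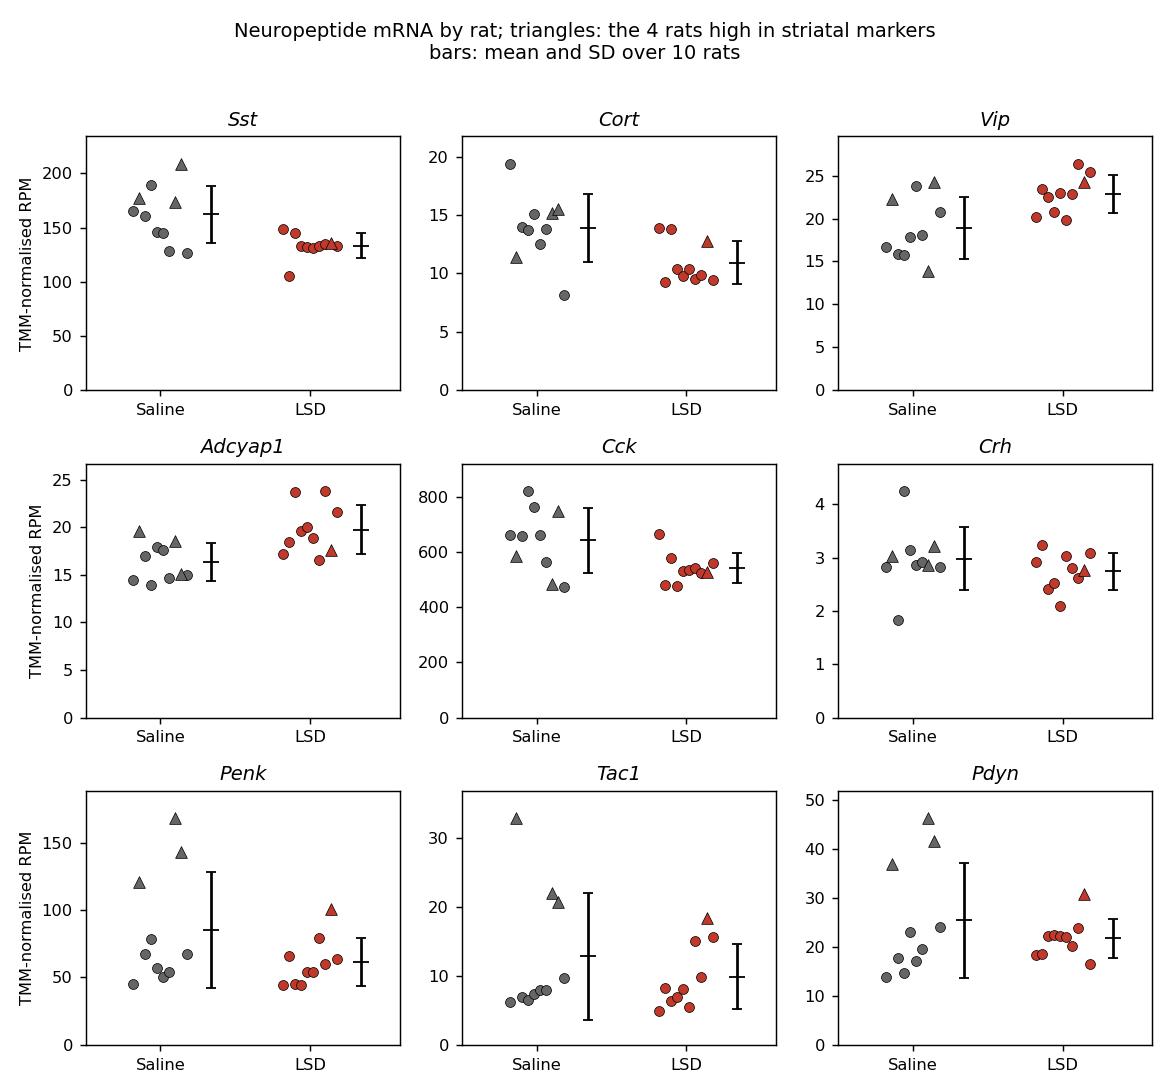
TMM-normalised RPM of the 9 detected neuropeptide genes in each of the 10 LSD-treated (red) and 10 saline-treated (grey) rats, 1 panel per gene, with bars for the mean and SD of each group and triangles for the 4 rats high in striatal markers. The 10 LSD-treated rats lie below the saline median for *Sst* and *Cort* and above it for *Vip* and *Adcyap1*, and the triangles have the highest levels of *Penk*, *Tac1* and *Pdyn*.

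*Cck*, whose product cholecystokinin is made by a class of basket cells and by many pyramidal neurons, did not pass the test with all rats. It was at 476, 533 and 667 RPM in the LSD-treated rats and at 473, 660 and 822 RPM in the saline-treated rats, with 9 LSD-treated rats below the saline median. The log2 fold change was -0.24 (SE 0.089, 95% confidence interval -0.43 to -0.06, edgeR adjusted p = 0.064). Without the 4 striatal-marker-high rats it was -0.28 (edgeR adjusted p = 0.046), and it also passed without LSD 1, saline 2, saline 8 or saline 10 (edgeR adjusted p 0.0225 to 0.0482).

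*Crh*, which encodes corticotropin-releasing hormone, the stress peptide that cortex expresses in scattered interneurons, had only 25 to 78 reads per rat. Its levels were 2.09, 2.78 and 3.24 RPM in the LSD-treated rats and 1.83, 2.90 and 4.25 RPM in the saline-treated rats. The groups overlapped over most of their range, and the log2 fold change of -0.12 had a 95% confidence interval of -0.35 to 0.12 (edgeR adjusted p = 0.521).

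The precursors of enkephalin, substance P and dynorphin followed the 4 striatal-marker-high rats. *Penk*, the enkephalin precursor, was at 101 to 168 RPM in these 4 rats and 44.5 to 79.1 RPM in the other 16. *Tac1*, which encodes substance P and neurokinin A, was at 18.4 to 32.9 RPM against 4.87 to 15.6 RPM. *Pdyn*, the dynorphin precursor, was at 30.9 to 46.3 RPM against 13.9 to 24.0 RPM. For each of these genes the lowest of the 4 rats exceeded the highest of the other 16. The same did not hold for the other detected neuropeptide genes: *Sst*, for example, was at 136 to 209 RPM in the 4 rats and 105 to 189 RPM in the other 16, and *Vip* at 13.9 to 24.2 RPM and 15.7 to 26.4 RPM.

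**Figure D3:**
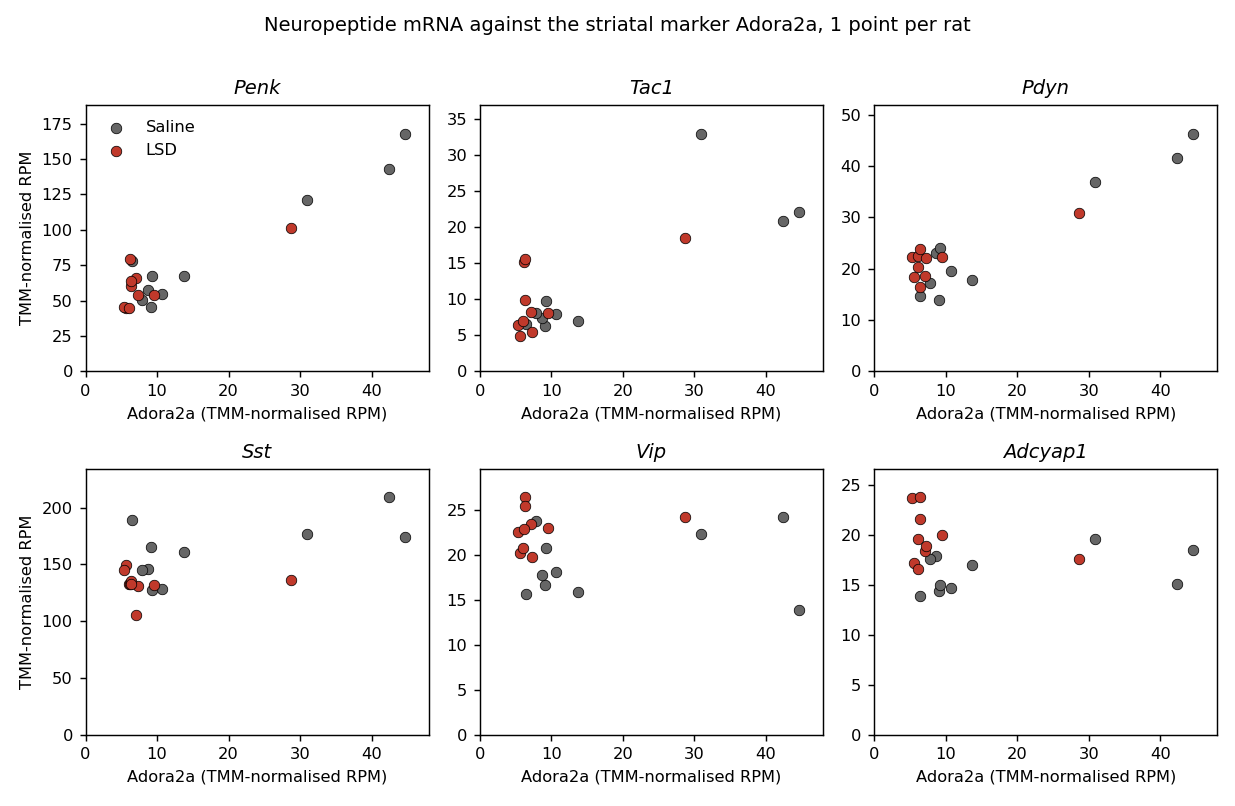
Level of *Penk*, *Tac1*, *Pdyn*, *Sst*, *Vip* and *Adcyap1* against that of the striatal marker *Adora2a* in each rat, both in TMM-normalised RPM, with LSD-treated rats in red and saline-treated rats in grey. The 4 rats with *Adora2a* at 28.7 RPM or more carry the highest *Penk*, *Tac1* and *Pdyn* values.

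None of these opioid and tachykinin precursors passed the test between LSD and saline, with or without these rats. *Penk* was at 44.5, 57.1 and 101 RPM in the LSD-treated rats and 45.2, 67.3 and 168 RPM in the saline-treated rats, with a log2 fold change of -0.48 (95% confidence interval -0.94 to -0.02, edgeR adjusted p = 0.145) that was -0.08 (edgeR adjusted p = 0.687) without the 4 rats. For *Tac1* the levels were 4.87, 8.13 and 18.4 RPM and 6.21, 7.97 and 32.9 RPM, and the log2 fold change of -0.39 (edgeR adjusted p = 0.436) became 0.26 (edgeR adjusted p = 0.413). For *Pdyn* the levels were 16.5, 22.1 and 30.9 RPM and 13.9, 21.3 and 46.3 RPM, and -0.24 (edgeR adjusted p = 0.432) became 0.16 (edgeR adjusted p = 0.312). The group medians of *Tac1* and *Pdyn* were close, and the direction of both genes rested on the 4 rats. On GRCr8 a long noncoding RNA gene overlaps one end of *Pdyn*, and the strand setting of the counting is not given in the sources used here.

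*Npy*, which encodes neuropeptide Y and is normally an abundant interneuron transcript in cortex, was listed at 0 in all 20 rats. *Hprt1*, a purine salvage enzyme that every cell uses, had at most 20 reads in any rat and was itself listed at 0 in 15 of the 20 rats, whereas *Actb* had at least 32296 reads in each. The 0 of *Npy* is therefore a listed value and gives no level in either group. Among its receptors, *Npy1r* had 290 to 822 reads per rat and a log2 fold change of 0.15 (edgeR adjusted p = 0.121).

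Relations between the neuropeptides across rats were computed as correlations of log2(RPM + 1) for 36 pairs of the 9 genes, after subtracting each group's mean. For *Penk*, *Tac1* and *Pdyn* the 4 striatal-marker-high rats lay above all the others, so no pooled value is given for pairs of these. In *Tac1* they were not a separate cluster. LSD 7 and LSD 10 were at 15.1 and 15.6 RPM, between LSD 8 at 9.87 RPM and LSD 9, the lowest of the 4, at 18.4 RPM. Over the other 16 rats, *Tac1* and *Penk* had r = 0.618 (permutation p = 0.0126, adjusted p = 0.10) and rho = 0.562 (permutation p = 0.0321, adjusted p = 0.145). Without the 2 rats farthest from the median in *Tac1*, r was 0.442, and each such value leaves out rats by the first gene of its pair only. *Penk* and *Pdyn* had r = -0.0344 and *Tac1* and *Pdyn* r = 0.0186 over the 16 rats.

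*Sst* and *Cck* had r = 0.775 (permutation p = 0.00199, adjusted p = 0.0433) and rho = 0.685 (permutation p = 0.00725, adjusted p = 0.0652) over the 16 rats, with r = 0.731 without the 2 farthest rats. Over all 20 rats the value was r = 0.531 (permutation adjusted p = 0.237). *Vip* and *Tac1* had r = 0.597 (permutation p = 0.00305, adjusted p = 0.0433) and rho = 0.738 (permutation p = 0.00048, adjusted p = 0.0173) over the 16 rats. *Tac1* and *Cort* were negatively related, with r = -0.580 (permutation p = 0.00361, adjusted p = 0.0433) and rho = -0.726 (permutation p = 0.0012, adjusted p = 0.0216). These were the 3 pairs of 36 past the adjusted threshold by Pearson's r over the 16 rats. Over all 20 rats, *Vip* and *Tac1* (permutation adjusted p = 0.548) and *Tac1* and *Cort* (permutation adjusted p = 0.776) did not pass by Pearson's r. For *Vip* and *Tac1*, r was 0.725 without the 2 rats farthest in *Vip*. LSD 7 and LSD 10, highest of the 16 in *Tac1* (15.1 and 15.6 RPM, next 9.87 RPM), stayed in for that value. For *Tac1* and *Cort*, r was -0.676 without the 2 rats farthest in *Tac1*.

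Within these 16 rats some neuropeptides still varied with the summed level of the 10 striatal markers. *Cort* had r = 0.706 (permutation p = 0.00607, adjusted p = 0.0273 over 9 genes) and rho = 0.641 (permutation p = 0.00824, adjusted p = 0.0371). Its r fell to 0.382 without the 2 rats farthest in the summed striatal level, so the relation rests on them. *Tac1* had r = -0.536 (permutation p = 0.00502, adjusted p = 0.0273) and rho = -0.621 (permutation p = 0.00792, adjusted p = 0.0371), and r was -0.52 without the same 2 rats. LSD 7 and LSD 10, the highest of the 16 in *Tac1* (15.1 and 15.6 RPM, next 9.87 RPM), stayed in. How far the *Tac1* relation rests on LSD 7 and LSD 10 was not tested. Neither *Sst* (r = 0.407, permutation adjusted p = 0.266) nor *Vip* (r = -0.456, permutation adjusted p = 0.224) passed. The summed striatal level itself was at 459, 518 and 755 RPM in the LSD-treated rats and 457, 627 and 1010 RPM in the saline-treated rats (lowest, median and highest). All 9 tested striatal markers had negative log2 fold changes, with a median of -0.61, and *Gpr6* passed the test (-1.24, edgeR adjusted p = 0.0394), ahead of *Adora2a* (-1.06, edgeR adjusted p = 0.06714) and *Drd1* (-0.61, edgeR adjusted p = 0.06786). In the other 16 rats 8 of the 9 were negative, with a median of -0.22. *Gpr6* was at -0.70 (edgeR adjusted p = 0.0203) and *Adora2a* at -0.50 (edgeR adjusted p = 0.0183). These 16 rats were selected by their *Adora2a* level, so p-values of striatal markers within them are no independent test. With single rats left out the striatal markers called lower numbered 0 (without any of LSD 2, 3, 4, 5, 6, 7, 8 or 10 or saline 3, 8 or 9) to 6 (without LSD 9), with 2 without saline 4 and 5 without saline 10. With this summed level as a covariate, a setting added after seeing the data, 0 of the 9 neuropeptides passed edgeR's test, and 2 higher and 2 lower had an unadjusted p under 0.05, where 2.08% of all genes were called higher and 3.48% lower. *Sst* was at -0.17 (edgeR adjusted p = 0.156), *Cort* at -0.21 (edgeR adjusted p = 0.269), *Vip* at 0.26 (edgeR adjusted p = 0.115) and *Adcyap1* at 0.30 (edgeR adjusted p = 0.0559).

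Of 12 other neuropeptide precursors, 10 were tested in edgeR, 0 were higher and 3 were lower in the LSD-treated rats. Their median log2 fold change was -0.15. At an unadjusted p under 0.05 edgeR counted 0 higher and 4 lower, and DESeq2 called 0 higher and 3 lower. *Pnoc*, the precursor of the opioid-like peptide nociceptin, was at 5.77, 6.98 and 8.12 RPM in the LSD-treated rats and 7.45, 8.49 and 10.6 RPM in the saline-treated rats. No LSD-treated rat exceeded the saline median of *Pnoc*, and the log2 fold change was -0.30 (edgeR adjusted p = 0.01523), or -0.29 (edgeR adjusted p = 0.0301) without the 4 striatal-marker-high rats. *Tac3*, which encodes neurokinin B, fell by 0.39 on the log2 scale (edgeR adjusted p = 0.02786), and *Gal*, which encodes galanin, fell by 1.0 (edgeR adjusted p = 0.03093) on only 5 to 73 reads per rat. Without the 4 rats *Tac3* and *Gal* were at -0.31 (edgeR adjusted p = 0.10) and -0.67 (edgeR adjusted p = 0.174). Only 1 of the list passed without LSD 8 or without saline 9.

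Of 27 neuropeptide receptors and binding proteins, 24 were tested, 1 was higher and 3 were lower. These calls make up 16.7% of the receptors tested, beside 15.0% of all genes, and 12.5% beside 20.3% without the 4 striatal-marker-high rats. *Sstr3*, a somatostatin receptor found on neuronal cilia, had 31.8, 35.9 and 41.1 RPM in the LSD-treated rats and 31.8, 43.2 and 57.1 RPM in the saline-treated rats, with all LSD-treated rats below the saline median and a log2 fold change of -0.26 (edgeR adjusted p = 0.03085). *Mchr1*, the receptor of melanin-concentrating hormone, which also sits on neuronal cilia, was lower by a log2 fold change of -0.29 (edgeR adjusted p = 0.01752). *Ntsr2*, a neurotensin receptor that astrocytes express, had a log2 fold change of -0.38 (edgeR adjusted p = 0.007941). *Oprm1*, the mu opioid receptor, was higher at 0.62 (edgeR adjusted p = 0.03036), at 7 to 47 reads per rat. Without the 4 rats the 3 lower receptors passed and *Oprm1* did not (0.57, edgeR adjusted p = 0.0713). The single higher call was also lost when any of LSD 2, LSD 6, saline 1, saline 4, saline 5 or saline 9 was left out.

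The receptors that bind the 4 called peptides were read after the calls were seen. *Vipr1*, a receptor for both VIP and PACAP, was at -0.09 (edgeR adjusted p = 0.4651) and *Vipr2*, the other shared receptor, at 0.14 (edgeR adjusted p = 0.4891). *Adcyap1r1*, the receptor selective for PACAP, was at -0.01 with a 95% confidence interval of -0.15 to 0.12. The somatostatin receptors *Sstr1*, *Sstr2* and *Sstr4* were at -0.08, -0.24 and 0.07 (edgeR adjusted p 0.6426, 0.1457 and 0.7018).

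Of 18 genes for peptide processing and dense core vesicles, 17 were tested in edgeR, 3 were higher and 0 were lower. These calls make up 17.6% of the list, beside 15.0% of all genes, and 35.3% beside 20.3% without the 4 striatal-marker-high rats. The median log2 fold change of the list was 0.05 over all rats. At an unadjusted p under 0.05 edgeR counted 5 higher and 4 lower, and DESeq2 called 3 higher and 1 lower. *Pcsk1*, a convertase that cleaves peptide precursors, was at 2.78, 3.90 and 4.66 RPM in the LSD-treated rats and 1.91, 2.84 and 3.92 RPM in the saline-treated rats, a log2 fold change of 0.42 (edgeR adjusted p = 0.0234). *Cpd*, a carboxypeptidase that trims the cleaved ends, had 0.22 (edgeR adjusted p = 0.04385) and *Scg3*, a granin that sorts cargo into secretory granules, had 0.24 (edgeR adjusted p = 0.04959). Without the 4 rats, 4 genes of the list were higher and 2 lower, with *Scg3* at 0.33 (edgeR adjusted p = 0.00869) and *Pcsk1* no longer past the threshold (0.32, edgeR adjusted p = 0.0691). With single rats left out the list held 1 to 4 higher calls, with 1 without any of LSD 3, 4, 5, 6, 7 or 8 or saline 1, 4, 5 or 6, and 4 without saline 2.

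**Figure D4:**
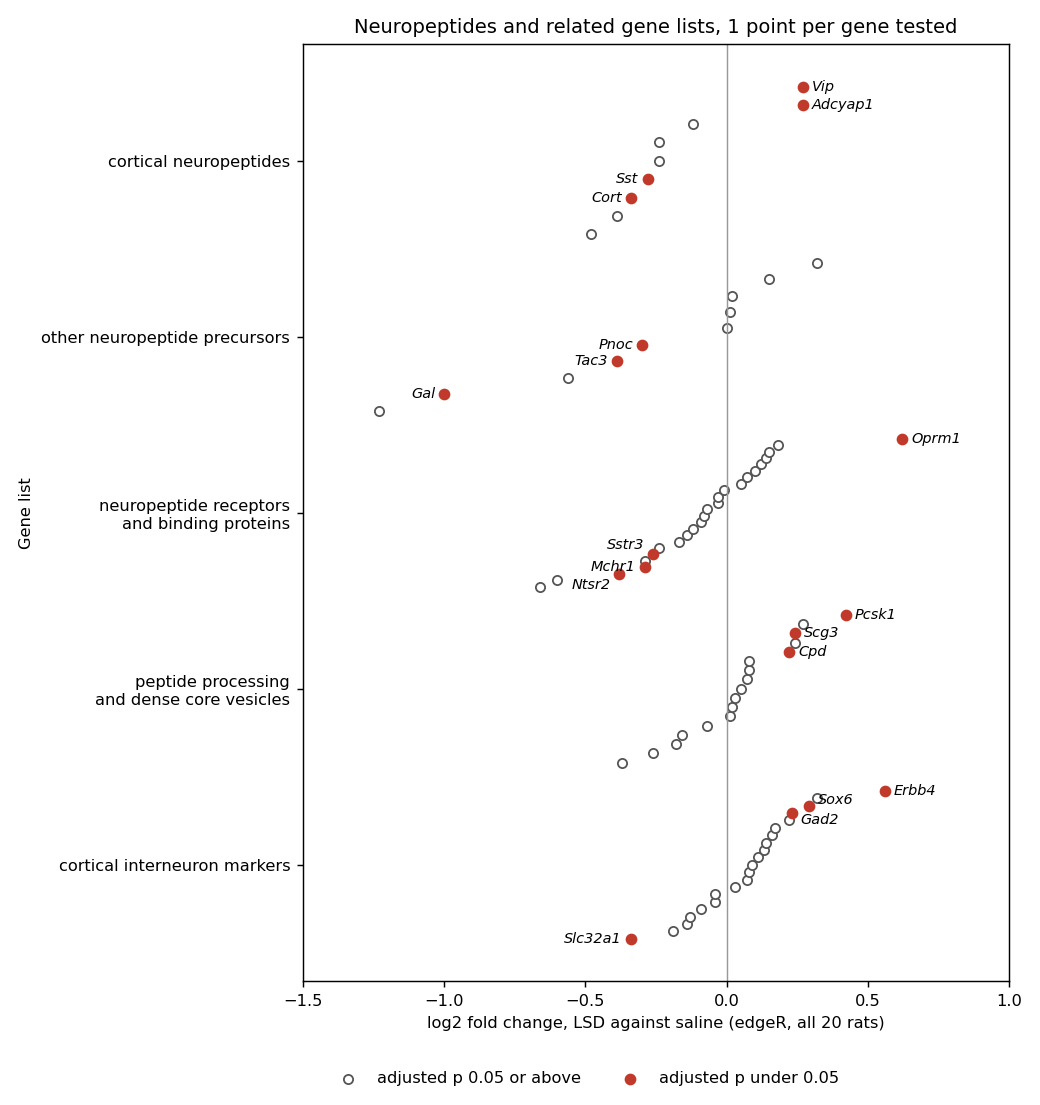
Log2 fold change, LSD against saline, of every tested gene among the cortical neuropeptides, other precursors, receptors, processing genes and interneuron markers, with 1 point per gene. Filled points with a name have an edgeR adjusted p under 0.05, and these run from *Gal* at -1.0 to *Oprm1* at 0.62.

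Among the cortical interneuron markers, 21 were tested, 3 were higher and 1 was lower (19.0%, beside 15.0% of all genes), with a median log2 fold change of 0.09. Without the 4 striatal-marker-high rats 23.8% of these markers were called, beside 20.3% of all genes. *Erbb4*, a neuregulin receptor of interneurons, was at 15.8, 22.3 and 25.4 RPM in the LSD-treated rats and 6.45, 15.9 and 17.7 RPM in the saline-treated rats, a log2 fold change of 0.56 (edgeR adjusted p = 0.01001). *Sox6*, a transcription factor of the somatostatin and parvalbumin lineages, had 0.29 (edgeR adjusted p = 0.0254) and *Gad2*, a GABA-synthesising enzyme, 0.23 (edgeR adjusted p = 0.03691). *Slc32a1*, the vesicular GABA transporter, was lower, at -0.34 (edgeR adjusted p = 0.01802). Without the 4 rats *Sox6* did not pass (0.22, edgeR adjusted p = 0.0862), whereas *Erbb4* (0.46, edgeR adjusted p = 0.00573), *Gad2* (0.22, edgeR adjusted p = 0.00919) and *Slc32a1* (-0.40, edgeR adjusted p = 0.0127) did, joined by *Calb1*, a calcium-binding protein, higher at 0.25 (edgeR adjusted p = 0.0372) and *Maf*, an interneuron transcription factor, lower at -0.21 (edgeR adjusted p = 0.0342). The count of higher markers fell from 3 to 1 without saline 5 and with the span correction, and to 0 with the striatal covariate. Markers shared by all GABAergic cells thus included a higher and a lower transcript beside *Sst* and *Vip*.

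Markers of other cell types were read in the same way, beside the 15.0% of all genes called in either direction. Of 12 excitatory neuron markers, *Rorb*, a transcription factor of the middle cortical layers, was higher (0.24, edgeR adjusted p = 0.01555), and the next smallest p-values belonged to *Slc30a3* (-0.32, edgeR adjusted p = 0.06874) and *Bcl11b* (-0.21, edgeR adjusted p = 0.1094). *Slc30a3*, a vesicular zinc transporter, passed without the 4 rats (-0.40, edgeR adjusted p = 0.0229), and 1 excitatory marker was also called lower by DESeq2, after the span correction and without any of LSD 1 or saline 2, 6, 9 or 10. The call on *Rorb* was kept without the 4 rats (0.21, edgeR adjusted p = 0.0316) but not after the span correction or with the striatal covariate, where 0 excitatory markers were higher. All 8 oligodendrocyte markers had negative log2 fold changes, with a median of -0.32, and *Olig1* passed (-0.32, edgeR adjusted p = 0.02845), whereas the myelin genes *Mag* and *Cnp* were at -0.48 and -0.33 (edgeR adjusted p 0.07153 and 0.09321). When the 4 rats were left out, 6 of the 8 were negative, with a median of -0.14, and *Olig1* passed (-0.28, edgeR adjusted p = 0.0243). With the striatal covariate 5 were negative, the median was -0.02 and 0 passed. With single rats left out 0 (without LSD 2, LSD 3, LSD 8 or saline 1) to 3 (without saline 5) passed, with 2 without LSD 9. The summed level of these markers was at 2360, 4000 and 5960 RPM in the LSD-treated rats and 2330, 4930 and 7680 RPM in the saline-treated rats. Of 8 astrocyte markers, *Slc1a2*, a glutamate transporter, was higher (0.41, edgeR adjusted p = 0.04234) and *Aldoc*, a glycolytic enzyme, was lower (-0.34, edgeR adjusted p = 0.004076), with the gap junction gene *Gja1* at 0.15 (edgeR adjusted p = 0.1153). In the other 16 rats *Slc1a2* was at 0.28 (edgeR adjusted p = 0.0679) and *Aldoc* at -0.34 (edgeR adjusted p = 0.00492). The count of higher astrocyte markers was also 0 after the span correction, with the striatal covariate, and without any of LSD 1, 2, 3, 4, 5, 6, 8, 9 or 10 or saline 2, 4, 5 or 6, and it was 2 without saline 10.

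Of the 8 microglial and 7 tested endothelial markers, 0 passed edgeR's test at the adjusted threshold. At an unadjusted p under 0.05 edgeR counted 0 microglial markers and 1 endothelial marker, lower in the LSD-treated rats, and DESeq2 called 0 and 1. The smallest p-values belonged to *P2ry12* (0.12, edgeR adjusted p = 0.3913), *Aif1* and *Itgam* among the microglial markers and to *Cldn5* (-0.18, edgeR adjusted p = 0.0517), *Pecam1* and *Esam* among the endothelial markers. When the 4 rats were left out, *P2ry12*, a purinergic receptor of microglia, was higher at 0.29 (edgeR adjusted p = 0.00945) and *Cldn5*, a tight junction protein, was lower at -0.22 (edgeR adjusted p = 0.0159). A single endothelial marker was likewise called lower without LSD 10, saline 2, saline 3 or saline 8. Of 7 peptides typical of the hypothalamus and nearby regions, 3 were tested and *Pomc* (-0.44, edgeR adjusted p = 0.03185) and *Avp* (-1.0, edgeR adjusted p = 0.0388) were lower, at no more than 3.73 and 2.77 RPM in any rat, while *Agrp* was at -0.18 (edgeR adjusted p = 0.6506). Both calls held without the 4 rats (-0.44 and -1.19, edgeR adjusted p 0.0391 and 0.0358). However, 0 passed with total count scaling, no filter or the span correction, or without any of LSD 5, LSD 6, LSD 8, saline 4 or saline 5, and only 1 passed without any of LSD 2, 3, 4, 7, 9 or 10 or saline 1, 3, 9 or 10. The part of these cell type markers in the neuropeptide values was not tested, beyond the striatal comparisons given above.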

How the data were processed

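Poly(A) RNA of the mPFC of 20 rats, 10 per group, was sequenced with 1 library per rat. After trimming with TrimGalore and alignment to the rat build rn6 with Hisat2, the authors counted reads per gene with HTSeq-count and deposited these raw counts unnormalised. Versions, annotation and strand setting are not given in the sources used here. The matrix closes with 5 rows that name no gene, which held 25.5% to 29.0% of each library and were left out. No 2 libraries were identical.

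The filter was the study's own, a minimum of 5 reads in 10 or more libraries (16605 genes). Genes were tested with edgeR 4.0.16 in R 4.3.3 (TMM, quasi-likelihood F test, Benjamini-Hochberg adjustment over all of them, threshold 0.05), with LSD against saline and no covariate, after a trial on simulated counts. The alternatives exchanged the test (DESeq2 1.42.0 or an exact two-sided rank sum test), the scaling (median-ratio size factors or total counts) or the filter (none, or a minimum of 10 reads in every library). Others added a block for the replicate number, a surrogate variable (sva 3.50.0) or a centred offset for gene span (each rat's mean deviation in 50 bins of GRCr8 start-to-end distance, smoothed over 5 bins), or left out each rat. Leaving out the 4 striatal-marker-high rats, those with *Adora2a* above all others, and taking the summed striatal marker level as a covariate were added after seeing the data. Correlations used log2(TMM-normalised RPM + 1) centred within groups, with 100000 two-sided permutations within groups (scipy 1.17.1). The members and lists were chosen with earlier results of these data known. Named genes are the members, from each list those past the threshold or else up to 3 with the smallest p, and the 3 genes most alike each member, and any other was picked after its values were seen. Span covers 85.9% of the genes tested. Levels were not compared between genes, since transcript length was not used here.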

Additional observations from a re-analysis of the deposited data

Results flagged for a closer look

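In each group of 10 rats the highest and the lowest rat were compared with their nearest neighbour by Dixon's criterion, for the 44 genes described. Of the 88 groups, 15 ends stood apart. The criterion flags about 1 group in 20 when values are normally distributed. These genes share the same rats and vary together, so the count cannot show an excess over that rate. Among the neuropeptides, the lowest LSD-treated rat for *Sst* was LSD 2 at 105 RPM, with the next at 131 RPM. The highest LSD-treated rat for *Cck* was LSD 1 at 667 RPM, with the next at 578 RPM, and that for *Pdyn* was LSD 9 at 30.9 RPM, with the next at 23.9 RPM. LSD 9 is the LSD-treated rat of the 4 high in striatal markers, and it also stood apart from its group for *Gpr6* (10.3 RPM, next 3.9 RPM), *Adora2a* (28.7 RPM, next 9.54 RPM), the dopamine receptor *Drd1* (27.0 RPM, next 17.7 RPM) and *Olig1* (161 RPM, next 127 RPM). The 4 rats were picked by their *Adora2a* level, so the flags of LSD 9 in *Adora2a* and the other striatal markers are no independent observation.

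Saline 9, another of those 4 rats, was the lowest saline-treated rat for *Cpd* (42.6 RPM, next 59.0 RPM) and for *Erbb4* (6.45 RPM, next 12.5 RPM). Saline 10 was highest for *Avp* (2.77 RPM, next 0.851 RPM), and LSD 7 was lowest for *Slc1a2* (248 RPM, next 356 RPM). The microglial genes *Aif1* (18.6 RPM, next 13.0 RPM) and *Itgam* (39.7 RPM, next 26.4 RPM) were both highest in LSD 3, and *Itgam* was highest among the saline-treated rats in saline 4 (29.7 RPM, next 24.5 RPM). The endothelial gene *Esam* was highest in LSD 10 (25.8 RPM, next 21.3 RPM). The causes were not tested.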

How the results depend on the processing

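*Crh* and *Penk* kept their direction and stayed short of the threshold under every alternative run. *Sst* kept its direction but lost its call with the span correction (-0.19), the span correction with the replicate block (-0.18), without the 4 striatal-marker-high rats (-0.19), with the striatal covariate (-0.17) and in the exact rank sum test (-0.27). *Cort* lost its call under the same settings (-0.26, -0.25, -0.37, -0.21 and -0.31) and with median-ratio size factors (-0.35), total count scaling (-0.30) and no filter (-0.33). *Vip* lost its call with no filter (0.29), the striatal covariate (0.26) and the exact rank sum test (0.28), and *Adcyap1* with the striatal covariate (0.30). *Cck* gained a call with DESeq2 (-0.25), 1 surrogate variable (-0.25) and without the 4 rats (-0.28). *Tac1* and *Pdyn* turned positive without the 4 rats (0.26 and 0.16) and with the striatal covariate (0.17 and 0.14). The correlation of *Penk* and *Pdyn*, positive over all rats, was -0.0344 without the 4 rats.

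The number of neuropeptides called higher was 1 with no filter and in the rank sum test and 0 with the covariate. The number called lower was 1 with median-ratio size factors, total count scaling, no filter and without the 4 rats, and 0 with either span correction, the covariate and the rank sum test. Over all genes, 1076 were higher and 1418 lower. Those higher were 608 with the span correction, 1691 without the 4 rats and 345 with the covariate, and those lower were 858 with total count scaling, 836 with no filter and 578 with the covariate. Leaving out single rats gave 659 (without LSD 8) to 1681 (without saline 2) higher genes, with 705 without saline 4, and 907 (without LSD 8) to 1867 lower genes. It gave 0 to 2 neuropeptides called higher and 1 to 3 called lower, and log2 fold changes of -0.32 to -0.24 for *Sst*, -0.41 to -0.28 for *Cort*, 0.23 to 0.32 for *Vip*, 0.24 to 0.31 for *Adcyap1*, -0.28 to -0.20 for *Cck*, -0.17 to -0.05 for *Crh*, -0.58 to -0.31 for *Penk*, -0.52 to -0.10 for *Tac1* and -0.30 to -0.10 for *Pdyn*. The causes were not tested.

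The labels give both groups the same replicate numbers. Same-numbered rats had a mean correlation of 0.145 in their deviations from the group means (-0.259 to 0.467, over 0.1 in 6 of 10 pairs). Other pairs had a mean of -0.0157, and 1 LSD-treated rat correlated best with its own number. The labels do not say what the numbers mean, and the main test did not pair the rats by them. Whether same-numbered rats shared a batch was not tested. The replicate block gave 1355 higher and 1606 lower genes, and it changed no call among the neuropeptides, whereas the striatal markers called lower rose from 1 to 6. Low counts limit *Crh*, *Gal* and *Oprm1*, and p-values measure the spread between rats only.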

Other observations

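The spread of the neuropeptides between rats differed between the groups. The coefficient of variation was lower in the LSD-treated rats for 8 of the 9 genes, all but *Adcyap1*, beside 77.5% of all genes tested. For *Sst* it was 8.71% in the LSD-treated and 16.2% in the saline-treated rats, for *Vip* 9.46% and 19.1%, and for *Pdyn* 18.1% and 46.2%. Without the 4 striatal-marker-high rats it was lower for 6 of the 9, beside 57.8% of all genes, so the neuropeptides' share was near that of all genes in both sets.

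Each neuropeptide gene had its own closest companions across the 20 rats, as Pearson's r of log2(RPM + 1) centred within groups, a description in which all genes share the same libraries. *Sst* was most like *Praf2* (0.877), *Slc18a3* (0.847) and *Dgcr6* (0.843), and *Vip* was most like *Eif3e* (0.909), *Arl4a* (0.885) and *Kctd4* (0.877). *Cck* was most like *Pgam1* (0.928), *Txn2* (0.914) and *Ormdl3* (0.906), and *Cort* was most like *Cpne9* (0.867), *Htr6* (0.856), a serotonin receptor, and *Actr1b* (0.845). *Adcyap1* was most like *Eif4e2* (0.764), *Plk2* (0.761) and *Rgs4* (0.726), and *Crh* was most like *Fam89a* (0.808), *Cpg1* (0.791) and *Cpt2* (0.787). For *Penk*, *Tac1* and *Pdyn*, whose rats fell into clusters, no r over 20 rats is given. The closest genes over 20 rats were *Syndig1l*, *Nts* and *Gng7* for *Penk*, *Ppp1r2*, *Ptp4a2* and *Rarb* for *Tac1*, and *LOC102547155*, *Arpp21* and *Adora2a* for *Pdyn*. Over the other 16 rats *Penk* was most like *P2ry12* (0.884), *Krt71* (0.851) and *Sncaip* (0.845), *Tac1* was most like *Naca* (0.925), *Mrpl33* (0.923) and *Gtf2e2* (0.916), and *Pdyn* was most like *Jmjd1c* (0.843), *Abca5* (0.826) and *Slc4a7* (0.815).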
